A study of Mus musculus with 15 samples.

Results

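The genes described here make, load, remodel, bind or export plasma lipoproteins: apolipoproteins, the lipases and the factors that control them, HDL-bound enzymes, lipoprotein receptors and sterol exporters. They are 38 of the 18820 mouse genes measured, and were taken from a list of 39. A gene was read on the probe set with the highest mean over all 15 arrays, among probe sets annotated with 1 symbol. The 39th gene, Angptl6, had only 2 probe sets shared with other genes and was not analysed. Primary hepatocytes of male C57BL/6J mice, isolated by collagenase perfusion and a Percoll gradient, received an adenovirus overnight, and RNA was taken 36 h after transduction for whole-transcript Affymetrix arrays. There were 3 arrays for each of 5 groups: human FXRα4, human FXRα3, human FXRα2, human FXRα1, and GFP alone. The viruses for the isoforms also carried GFP behind a CMV promoter of its own, so GFP was shared by all groups. After transduction all cells were kept without dexamethasone and insulin, and the labels name no added FXR ligand.

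FXR, the product of Nr1h4, is the nuclear receptor for bile acids. FXRα1 and FXRα3 carry a short insert (MYTG) next to the DNA-binding domain that FXRα2 and FXRα4 lack, and FXRα3 and FXRα4 have the longer N-terminus. Hepatocytes secrete triglyceride on VLDL, whose backbone is apolipoprotein B, and make the proteins of HDL. In plasma, lipoprotein lipase takes fatty acid from VLDL with apolipoprotein C-II as its activator, LCAT and phospholipases remodel HDL, and hepatic receptors clear what remains. FXR activation is known to raise Apoc2 and to lower plasma triglyceride and HDL cholesterol in mice.

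All values are the deposited log2 values. A change is a difference of group means on the log2 scale ± SE (n = 3 arrays a group), from a linear model fitted with limma to all 18820 genes. The words "rose" and "fell" are used only at an adjusted p under 0.05. The words "changed by" give a value whether or not it passed that test. The 3 arrays a group limit the precision. Nothing in the labels says whether the arrays of a group stand for different animals or wells, so every p-value here reflects the spread among these arrays, which may be technical. Arrays had medians of 4.92 to 5.01 over all 35556 probe sets. Over the genes they correlated at 0.997 to 0.999 within groups. The mean over 4 of 7 hepatocyte markers was 11.736 to 11.811 with FXRα4, 11.726 to 11.848 with FXRα3, 11.74 to 11.822 with FXRα2 and 11.608 to 11.712 with FXRα1, against 11.575 to 11.637 with GFP. Of these 4, Cps1 rose with every isoform (0.35, 0.30, 0.30 and 0.27 for FXRα4, FXRα3, FXRα2 and FXRα1). Ttr rose with FXRα4 (0.36), FXRα3 (0.29) and FXRα2 (0.33), and Alb and Ahsg passed no test against GFP. The means over the Kupffer (8 genes), endothelial (8) and stellate or fibroblast (8) markers lay between 4.40 and 5.05 and the groups overlapped in part. Of these 24 genes, 5 passed a test against GFP: Reln rose with FXRα4 (0.97, adjusted p = 3.04e-07) and FXRα2 (0.55, 0.000401), Acta2 (-0.34) and Tek (-0.30) fell with FXRα4, and Stab2 (0.30) and Timd4 (0.21) rose with FXRα2. The mean over 5 cholangiocyte markers was 6.83 to 6.97 with FXRα4, 6.53 to 6.59 with FXRα3, 6.69 to 6.82 with FXRα2 and 6.44 to 6.45 with FXRα1, against 5.92 to 5.98 with GFP, with no overlap between isoform and GFP arrays. Of these 5, Krt19, Sox9 and Epcam passed the test with every isoform: Epcam rose (4.68, 0.74, 4.95 and 0.68 for FXRα4, FXRα3, FXRα2 and FXRα1), Sox9 rose (1.07, 0.63, 1.05 and 0.45), and Krt19 changed by -0.93, 1.76, -1.82 and 1.32. The part of these markers in the results below was not tested, and in such bulk RNA a change in the number of cells of a type and a change in RNA per cell cannot be told apart. The mouse Nr1h4 probe set does not check the human transgenes, and no other value used here gives the amount of each isoform. In comparisons between isoforms, a difference in that amount and a difference in structure therefore cannot be told apart. The Nr1h4 probe set read 7.33 to 7.42 with FXRα4, 6.90 to 7.0 with FXRα3, 7.04 to 7.16 with FXRα2 and 6.94 to 7.08 with FXRα1, against 6.94 to 7.03 with GFP. It rose with FXRα4 (0.41 ± 0.074, adjusted p = 0.000117) and passed no test with the other isoforms (adjusted p of 0.175 or more).

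More lipoprotein genes passed the test with FXRα2 than with any other isoform. Of 38, 23 rose (60.5%) and 4 fell (10.5%) with FXRα2 against GFP, where 17.5% of all genes rose and 16.7% fell. The median change was 0.258 over the lipoprotein genes and -0.048 over all genes. With FXRα4, 16 rose (42.1%) and 7 fell (18.4%), against 18% and 15.7% of all genes, with medians of 0.171 and -0.027. With FXRα3, 10 rose (26.3%) and 5 fell (13.2%), against 7.45% and 6.62% of all genes, with medians of 0.058 and -0.003. With FXRα1, 13 rose (34.2%) and 2 fell (5.3%), against 8.42% and 4% of all genes, with medians of 0.025 and 0.004. The 4 comparisons share the GFP arrays. Most changes were small: those of at least 2-fold were Lipg and Apom with FXRα2 and Lipg with FXRα4.

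Of the scalings tried, centring on the median moved the directions most. Each array was centred on the median of its 18820 genes, not of the 35556 probe sets whose medians are given above. This shifted the median of all genes by -0.212 (FXRα4), -0.039 (FXRα3), -0.221 (FXRα2) and -0.105 (FXRα1) against GFP. Before it those medians were -0.027, -0.003, -0.048 and 0.004, so this centring moved each further from 0. On the median-centred scale 8 lipoprotein genes rose and 15 fell with FXRα4, 6 rose and 5 fell with FXRα3, 14 rose and 11 fell with FXRα2, and 5 rose and 5 fell with FXRα1. The share of called genes that rose, over all genes, was then 16.3%, 39.9%, 14.4% and 32.7% in the same order, against 53.4%, 53%, 51.1% and 67.8% on the deposited scale. The called rises that turned below 0 were those of Apoa4, Apob, Apoc1 and Mttp, all of 0.21 or smaller on the deposited scale. For FXRα1 the share over all genes was also lower with 75th percentile centring (51.5%) and quantile normalization (53.8%). The lipoprotein genes moved less with these scalings. With quantile normalization 16 rose and 10 fell (FXRα4), 10 and 5 (FXRα3), 23 and 4 (FXRα2), and 10 and 3 (FXRα1). With 75th percentile centring the counts were 16 and 7, 8 and 4, 20 and 4, and 10 and 3 in the same order. Calls also rested on few arrays in places. For FXRα1, 15 genes were called with all arrays, 7 without FXRα1 replicate 3 and 9 without GFP replicate 2. The calls kept whichever array was left out numbered 20 of 23 for FXRα4, 7 of 15 for FXRα3, 22 of 27 for FXRα2 and 7 of 15 for FXRα1.

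**Figure D1:**
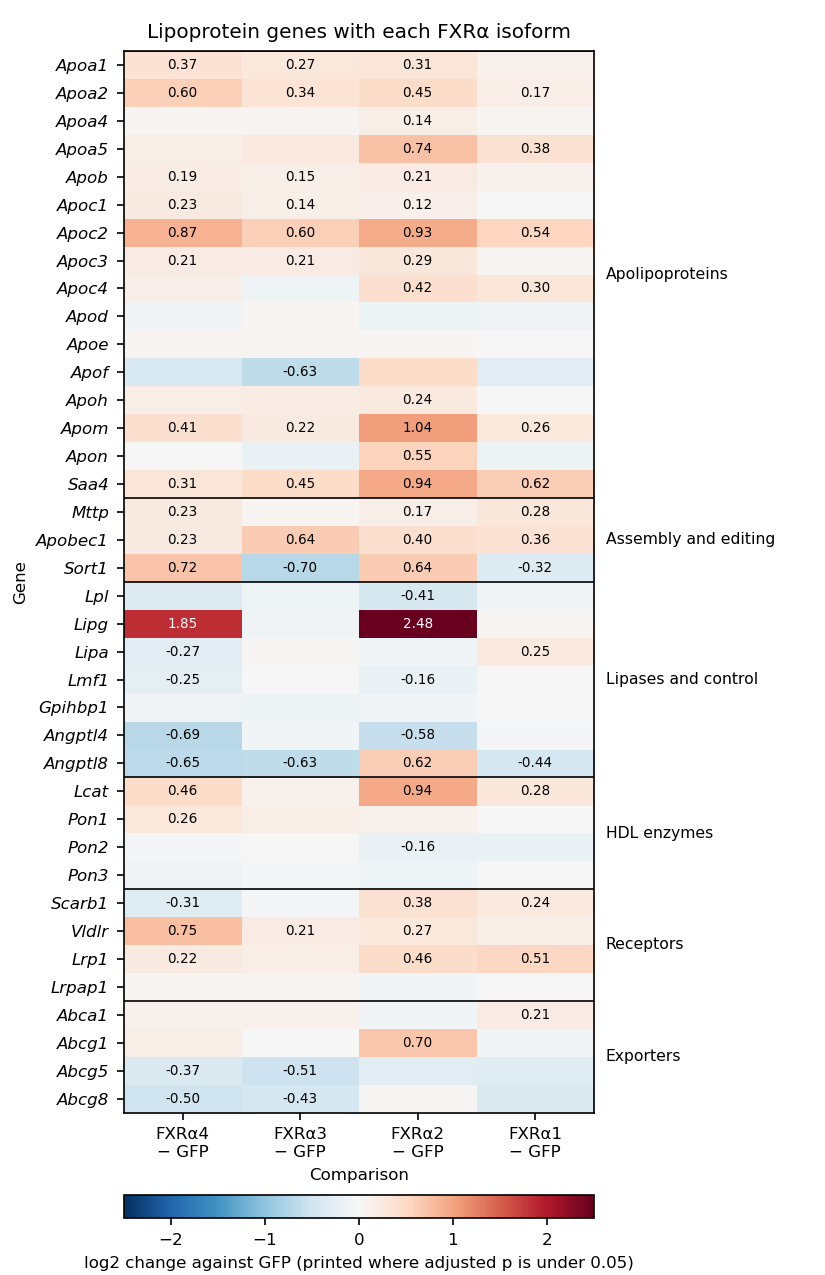
Log2 change against GFP of the 38 lipoprotein genes (down the page, grouped by role) with FXRα4, FXRα3, FXRα2 and FXRα1 (across), coloured from blue (lower) to red (higher), with the value printed where the adjusted p was under 0.05. The darkest cells are Lipg with FXRα2 (2.48) and FXRα4 (1.85), and the FXRα2 column holds 23 printed rises.

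Among the apolipoproteins, Apoc2, the activator of lipoprotein lipase, and Saa4, a constitutive serum amyloid A of HDL, rose with all 4 isoforms. Apoc2 read 9.50, 9.58 and 9.84 with FXRα4, 9.36, 9.37 and 9.38 with FXRα3, 9.69, 9.73 and 9.68 with FXRα2 and 9.33, 9.20 and 9.40 with FXRα1, against 8.75, 8.81 and 8.75 with GFP. Every isoform array lay above every GFP array, and FXRα4 and FXRα2 lay above FXRα3 and FXRα1. The changes were 0.87 ± 0.067, 0.60 ± 0.067, 0.93 ± 0.067 and 0.54 ± 0.067 for FXRα4, FXRα3, FXRα2 and FXRα1, with adjusted p of 7.78e-10, 1.09e-06, 2.1e-10 and 4.36e-06. Saa4 read 7.98, 8.0 and 7.86 with FXRα4, 8.16, 7.96 and 8.14 with FXRα3, 8.79, 8.57 and 8.38 with FXRα2 and 8.29, 8.23 and 8.23 with FXRα1, against 7.73, 7.56 and 7.61 with GFP. Here the short isoforms were the higher ones: no FXRα2 or FXRα1 array overlapped an FXRα4 or FXRα3 array. The changes of Saa4 were 0.31 ± 0.085 (adjusted p = 0.00554), 0.45 ± 0.085 (0.000527), 0.94 ± 0.085 (6.42e-09) and 0.62 ± 0.085 (1.61e-05) in the same order. The FXRα4 call of Saa4 was lost with median centring, at 0.10.

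Apom, the HDL protein that carries sphingosine 1-phosphate, read 8.77, 8.89 and 8.81 with FXRα4, 8.68, 8.59 and 8.64 with FXRα3, 9.56, 9.41 and 9.39 with FXRα2 and 8.60, 8.58 and 8.85 with FXRα1, against 8.42, 8.45 and 8.38 with GFP. The FXRα2 arrays stood apart from all others. Apom rose by 1.04 ± 0.068 with FXRα2, 2.06-fold (adjusted p = 3.96e-11), and by 0.41 ± 0.068 with FXRα4 (adjusted p = 4.01e-05). The smaller rises with FXRα3 (0.22, adjusted p = 0.0286) and FXRα1 (0.26, adjusted p = 0.0114) lost their call when single arrays were left out, with adjusted p up to 0.115 without FXRα3 replicate 1 and 0.0907 without FXRα1 replicate 3.

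The promoters of these 3 genes are shown because they had the largest changes with FXRα2 among the apolipoproteins and passed the test with every isoform. FXR binds, with RXR, an inverted repeat of the hexamer AGGTCA with 1 base between the copies, and can bind a lone hexamer. The windows are the 250 bases before the annotated start, from the RefSeq promoter table for GRCm38.p6, read 5′ to 3′ on the gene's strand. Apoc2 is chr7:19677942-19678191 (minus strand), Saa4 is chr7:46732604-46732853 (minus strand) and Apom is chr17:35131802-35132051 (minus strand). Capitals mark AGGTCA in Apoc2 and the inverted repeat in Saa4. There are none in Apom, where neither strand held the hexamer.
Apoc2: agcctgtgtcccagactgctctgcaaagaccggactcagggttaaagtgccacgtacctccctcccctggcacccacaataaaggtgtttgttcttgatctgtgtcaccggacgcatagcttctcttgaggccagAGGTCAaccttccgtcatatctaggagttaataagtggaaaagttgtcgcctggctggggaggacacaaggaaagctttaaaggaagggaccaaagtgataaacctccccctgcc
Saa4: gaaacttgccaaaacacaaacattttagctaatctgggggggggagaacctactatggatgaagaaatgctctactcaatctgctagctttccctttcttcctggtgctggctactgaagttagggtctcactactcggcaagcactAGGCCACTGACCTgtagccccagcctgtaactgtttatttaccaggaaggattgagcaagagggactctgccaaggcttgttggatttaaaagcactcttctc
Apom: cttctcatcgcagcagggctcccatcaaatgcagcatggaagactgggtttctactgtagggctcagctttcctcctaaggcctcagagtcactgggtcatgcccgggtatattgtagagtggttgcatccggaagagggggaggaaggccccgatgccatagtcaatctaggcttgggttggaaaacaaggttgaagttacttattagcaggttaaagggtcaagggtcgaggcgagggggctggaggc

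In Apoc2 the hexamer lay from -115 to -110, counted from the start, and again from 42 to 47, past the end of the stretch shown. In Saa4 the inverted repeat lay from -103 to -91 and differed from the repeat of AGGTCA at 1 position, T4C, counted from the repeat's first base. Both strands were searched over 300 bases (250 before to 50 after the start), and matches to the hexamer include the copies within repeats. An inverted repeat with at most 1 mismatch was found in 27 of 32851 promoters (0.08%), and Saa4 was the only lipoprotein gene with it. With at most 2 mismatches it was in 374 promoters (1.14%), and among the lipoprotein genes still in that of Saa4 alone (1 of 34 windows). AGGTCA was in 7 of 34 promoter windows of 28 lipoprotein genes (20.6%), against 16.26% of all promoters. Those 7 genes were Apoa2, Apoc2, Apoc4, Apoh, Apon, Pon3 and Saa4. The everted repeat of AGGTCA with 2 bases between was found with at most 2 mismatches in 1.47% of all promoters and in 0 of the 34. These matches are descriptions of the letters and show no binding.

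Apoa1 and Apoa2, the main structural proteins of HDL, rose by modest amounts. Apoa1 read 11.68, 11.70 and 11.82 with FXRα4, 11.64, 11.66 and 11.59 with FXRα3, 11.69, 11.67 and 11.66 with FXRα2 and 11.47, 11.45 and 11.46 with FXRα1, against 11.36, 11.38 and 11.35 with GFP. No isoform array overlapped the GFP arrays, and Apoa1 rose by 0.37 ± 0.038 (FXRα4, adjusted p = 4.74e-08), 0.27 ± 0.038 (FXRα3, adjusted p = 2.11e-05) and 0.31 ± 0.038 (FXRα2, adjusted p = 7.25e-07), while the change with FXRα1 was 0.10 ± 0.038 (adjusted p = 0.11). With median centring the FXRα2 call of Apoa1 was lost, at 0.086. Apoa2 rose by 0.60 ± 0.055 with FXRα4, 0.34 ± 0.055 with FXRα3 and 0.45 ± 0.055 with FXRα2 (adjusted p = 1.01e-08, 0.000103 and 5.93e-07). Its FXRα1 change of 0.17 (adjusted p = 0.0415) was lost without any 1 of 5 arrays, with adjusted p up to 0.154 without GFP replicate 3.

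Apoa5, which promotes lipolysis of VLDL at the vessel wall, read 6.03, 5.67 and 5.80 with FXRα4, 5.96, 5.81 and 5.92 with FXRα3, 6.24, 6.41 and 6.54 with FXRα2 and 6.10, 5.97 and 6.05 with FXRα1, against 5.60, 5.59 and 5.79 with GFP. The FXRα2 arrays were above all others, and the rise was 0.74 ± 0.11 (adjusted p = 1.01e-05). The rise with FXRα1 was 0.38 ± 0.11 (adjusted p = 0.0217), lost without any 1 of 4 arrays (0.0985 without GFP replicate 2). Apon, a liver apolipoprotein gene next to Apof in the mouse, rose with FXRα2 by 0.55 ± 0.10 (adjusted p = 7.97e-05), with arrays at 5.74 to 5.95 against 5.29 to 5.32 with GFP. The changes of Apon with the other isoforms were between -0.17 and -0.019, with adjusted p of 0.34 or more. Apof, known in humans as lipid transfer inhibitor protein, varied within groups: it read 7.42, 6.59 and 6.66 with FXRα2 and 6.80, 6.23 and 6.30 with GFP. It fell with FXRα3 by 0.63 ± 0.19 (adjusted p = 0.0224), and that call was lost without any 1 of 3 arrays (0.167 without GFP replicate 1).

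The other apolipoproteins moved little. Several were among the brightest genes, with GFP means of 12.84 (Apoe), 12.47 (Apoa4), 11.92 (Apoc1), 11.90 (Apoc3) and 11.40 (Apob), where the highest value of any probe set was 13.8. Apoh (10.41), Apoc4 (7.71) and Apod (3.61) read lower. Whether the arrays show the full size of a change at the brightest levels was not tested. Apob, the backbone of VLDL, changed by 0.19 ± 0.04 with FXRα4, 0.15 ± 0.04 with FXRα3, 0.21 ± 0.04 with FXRα2 (adjusted p = 0.000737, 0.0128 and 0.000279) and 0.10 ± 0.04 with FXRα1 (0.129), and turned to -0.025 with FXRα4 and -0.015 with FXRα2 under median centring. Apoc3, which slows lipolysis and remnant uptake, changed by 0.21 ± 0.057, 0.21 ± 0.057, 0.29 ± 0.057 and 0.048 ± 0.057 with FXRα4, FXRα3, FXRα2 and FXRα1; the first 3 passed the test and each lost its call with median centring. Apoc1, an exchangeable protein of VLDL and HDL, changed by 0.23, 0.14, 0.12 and 0.013 in the same order, the first 3 past the test (adjusted p = 2.7e-05, 0.0106 and 0.0179), and under median centring the FXRα4 call was lost, at 0.019, the FXRα3 call was lost, at 0.10, and the FXRα2 value turned to -0.11. Apoc4, a minor C apolipoprotein, rose by 0.42 ± 0.093 with FXRα2 (adjusted p = 0.000853, call lost with median centring). Apoh, a phospholipid-binding plasma protein, changed by 0.24 with FXRα2 (adjusted p = 0.0172, and 0.11 without GFP replicate 3). Apoa4, a protein of triglyceride-rich particles, changed by 0.14 ± 0.035 with FXRα2 (adjusted p = 0.0035), turned to -0.083 under median centring, and by 0.022 (adjusted p = 0.907) on its dimmer probe set. That dimmer set gave 0.395 with FXRα4 (adjusted p = 0.00895), where the brighter one gave 0.03 (adjusted p = 0.588), so the probe sets of Apoa4 disagree. Of these small changes, those of Apob, Apoc1 and Apoc3 with FXRα3, Apoc3 with FXRα4, Apoc1 with FXRα2 and Apoc4 with FXRα1 (0.30, adjusted p = 0.0366) also lost their call without 1 array or another, with adjusted p up to 0.139 (Apoc3 with FXRα3, without GFP replicate 3). Apoe, the remnant ligand, passed no test on the deposited scale, with changes of 0.05, 0.059, 0.039 and -0.017 (adjusted p of 0.291 or more), and was called lower with FXRα2 (-0.18) under median centring. Apod, a lipocalin, read 3.26 to 3.84 in all arrays and passed none either.

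Apolipoprotein genes lie in clusters, and neighbours in a cluster differed. In the order RefSeq gives, Apoc2 is followed by Apoc4 (1 other protein-coding gene between them), Apoc1 and Apoe on chromosome 7. With FXRα2 their changes were 0.93, 0.42, 0.12 and 0.039 in that order, and with FXRα4 0.87, 0.17, 0.23 and 0.05. In the chromosome 9 cluster of Apoa1, Apoc3, Apoa4 and Apoa5 the FXRα2 changes were 0.31, 0.29, 0.14 and 0.74, and the FXRα4 changes 0.37, 0.21, 0.03 and 0.17. With FXRα4 both clusters held genes that passed the test (Apoc2, Apoc1, Apoa1 and Apoc3) beside genes that did not (Apoc4, Apoe, Apoa4 and Apoa5). Under median centring Apoc1 and Apoc3 lost those calls, and the dimmer probe set of Apoa4 passed the test, as given above. Neighbours also differed in level. The GFP means were 8.77, 7.71, 11.92 and 12.84 for Apoc2, Apoc4, Apoc1 and Apoe, and 11.36, 11.90, 12.47 and 5.66 for Apoa1, Apoc3, Apoa4 and Apoa5. The differences between neighbours were not themselves tested, and neither was the part of signal level in them.

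**Figure D2:**
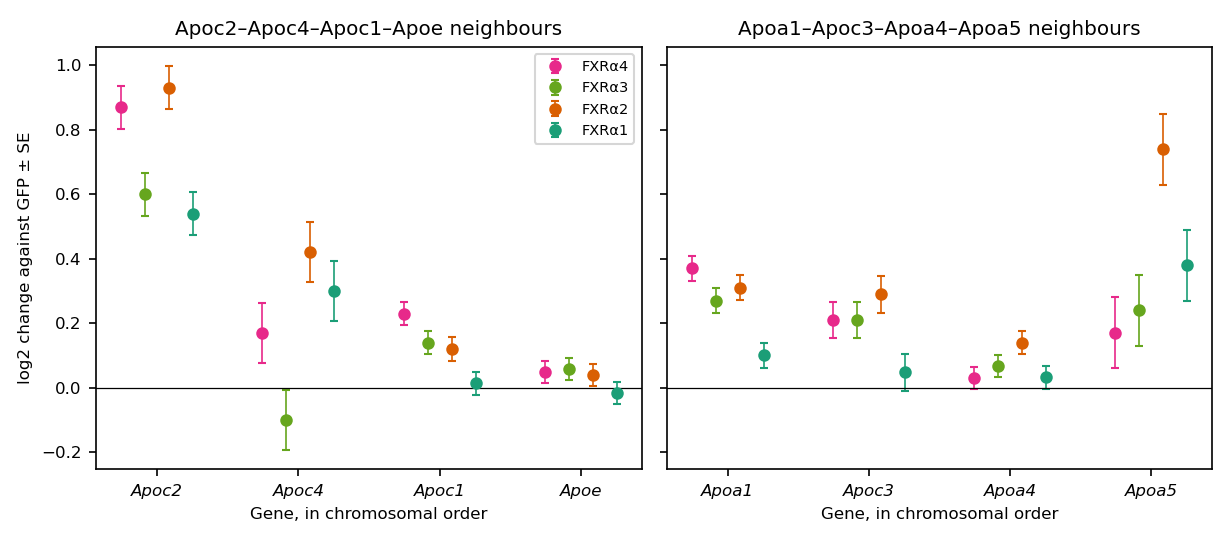
Log2 change against GFP (vertical axis, points; bars are ± SE) for the genes of 2 apolipoprotein clusters in chromosomal order, with FXRα4, FXRα3, FXRα2 and FXRα1 side by side for each gene. Apoc2 has the largest changes of its cluster with all 4 isoforms (0.54 to 0.93) and Apoe stays between -0.017 and 0.059; in the other cluster Apoa5 with FXRα2 (0.74) is the highest point.

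Of the genes for VLDL assembly and Apob editing, Sort1 split the isoforms in both directions. Sort1 encodes sortilin, a sorting receptor that binds apolipoprotein B and also traffics lipoprotein lipase. It read 7.83, 7.84 and 7.91 with FXRα4, 6.38, 6.46 and 6.49 with FXRα3, 7.70, 7.73 and 7.91 with FXRα2 and 6.82, 6.70 and 6.94 with FXRα1, against 7.13, 7.17 and 7.12 with GFP. All arrays of the isoforms without the insert lay above all GFP arrays, and all arrays of those with it lay below. Sort1 rose by 0.72 ± 0.08 with FXRα4 (adjusted p = 2.1e-07) and 0.64 ± 0.08 with FXRα2 (1.12e-06), and fell by 0.70 ± 0.08 with FXRα3 (1.4e-06) and 0.32 ± 0.08 with FXRα1 (0.00753).

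Apobec1, the deaminase that edits Apob RNA into the short form, read 10.44, 10.54 and 10.52 with FXRα4, 10.90, 11.03 and 10.81 with FXRα3, 10.66, 10.72 and 10.62 with FXRα2 and 10.68, 10.69 and 10.53 with FXRα1, against 10.28, 10.34 and 10.19 with GFP. It was above GFP in all 12 isoform arrays and highest with FXRα3. Its rises were 0.23 ± 0.056 (FXRα4), 0.64 ± 0.056 (FXRα3), 0.40 ± 0.056 (FXRα2) and 0.36 ± 0.056 (FXRα1), with adjusted p of 0.00246, 3.16e-08, 5.71e-06 and 6.7e-05, and the FXRα4 call was lost with median centring, at 0.018. Mttp, which loads lipid onto apolipoprotein B, changed by 0.23 ± 0.052 with FXRα4 (adjusted p = 0.00107), 0.058 with FXRα3 (0.63), 0.17 with FXRα2 (0.0116, and 0.0752 without FXRα2 replicate 1) and 0.28 with FXRα1 (0.000571). The FXRα1 rise of Mttp kept its direction and call, whereas median centring gave 0.022 with FXRα4 and -0.047 with FXRα2.

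The largest change of any lipoprotein gene was that of Lipg, which encodes endothelial lipase, a phospholipase that breaks down HDL. It read 5.57, 6.06 and 6.07 with FXRα4, 3.90, 3.99 and 3.99 with FXRα3, 6.25, 6.48 and 6.87 with FXRα2 and 3.96, 4.01 and 4.32 with FXRα1, against 4.17, 3.91 and 4.06 with GFP. The 6 arrays of isoforms without the insert lay over 1 log2 unit above the other 9, which overlapped. Lipg rose 3.62-fold with FXRα4 (1.85 ± 0.15, adjusted p = 1.67e-09) and 5.59-fold with FXRα2 (2.48 ± 0.15, adjusted p = 1.21e-11). With FXRα3 it changed by -0.088 (adjusted p = 0.848) and with FXRα1 by 0.05 (0.906). The GFP, FXRα3 and FXRα1 arrays read below the array medians and were not shown to lie above background, so the folds of Lipg, here and between isoforms, are to be read as lower bounds.

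The angiopoietin-like proteins, which inhibit lipoprotein lipase, took opposite courses with FXRα2. Angptl4, induced in fasting and by fatty acids, read 8.94, 9.11 and 8.98 with FXRα4, 9.71, 9.67 and 9.51 with FXRα3, 9.14, 9.09 and 9.15 with FXRα2 and 9.52, 9.72 and 9.70 with FXRα1, against 9.67, 9.83 and 9.60 with GFP. The arrays of both isoforms without the insert lay below all others, and Angptl4 fell by 0.69 ± 0.068 with FXRα4 (adjusted p = 2.87e-08) and 0.58 ± 0.068 with FXRα2 (4.16e-07). Its changes with FXRα3 and FXRα1 were -0.074 and -0.054 (adjusted p = 0.631 and 0.738). Angptl8, induced by feeding and insulin, read 7.95, 7.78 and 7.88 with FXRα4, 8.14, 7.71 and 7.81 with FXRα3, 9.08, 9.03 and 9.29 with FXRα2 and 8.10, 7.94 and 8.19 with FXRα1, against 8.47, 8.47 and 8.59 with GFP. FXRα2 alone lay above the GFP arrays and the other isoforms lay below them. Angptl8 rose by 0.62 ± 0.094 with FXRα2 (adjusted p = 1.42e-05), and fell by 0.65 ± 0.094 with FXRα4 (7.63e-06), 0.63 ± 0.094 with FXRα3 (4.53e-05) and 0.44 ± 0.094 with FXRα1 (0.00236).

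The remaining lipase genes changed less. Lmf1, the endoplasmic reticulum factor that lipases need to fold, fell by 0.25 ± 0.045 with FXRα4 (adjusted p = 0.000125) and 0.16 ± 0.045 with FXRα2 (0.00654). Lipa, the lysosomal acid lipase, fell by 0.27 ± 0.062 with FXRα4 (adjusted p = 0.00146) and changed by 0.25 ± 0.062 with FXRα1 (0.00927, and 0.0677 without GFP replicate 2). Lpl, lipoprotein lipase itself, which adult hepatocytes hardly make, read 4.11 to 4.89 in all 15 arrays. Its FXRα2 change of -0.41 ± 0.14 (adjusted p = 0.0247) was lost without any 1 of 3 arrays (0.123 without GFP replicate 3). Gpihbp1, the endothelial anchor of lipoprotein lipase, read 4.96 to 5.57 and passed no test.

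Among the HDL enzymes, Lcat, which esterifies cholesterol in HDL, read 8.36, 8.29 and 8.38 with FXRα4, 8.03, 7.94 and 8.0 with FXRα3, 8.81, 8.79 and 8.87 with FXRα2 and 8.32, 7.92 and 8.24 with FXRα1, against 7.76, 7.90 and 7.99 with GFP. The FXRα4 and FXRα2 arrays were clear of the GFP arrays, and those of FXRα3 and FXRα1 overlapped them. Lcat rose by 0.46 ± 0.083 with FXRα4 (adjusted p = 9.55e-05) and 0.94 ± 0.083 with FXRα2 (4.59e-09). The FXRα1 change of 0.28 (adjusted p = 0.0259) was lost without any 1 of 4 arrays (0.177 without FXRα1 replicate 1), and that with FXRα3 was 0.11 (0.528). The paraoxonases, lactonases of which PON1 and PON3 ride on HDL, hardly moved. Pon1 changed by 0.26 ± 0.07 with FXRα4 (adjusted p = 0.00522, call lost with median centring), Pon2 by -0.16 with FXRα2 (0.0429, and 0.157 without GFP replicate 1), and Pon3 passed no test.

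**Figure D3:**
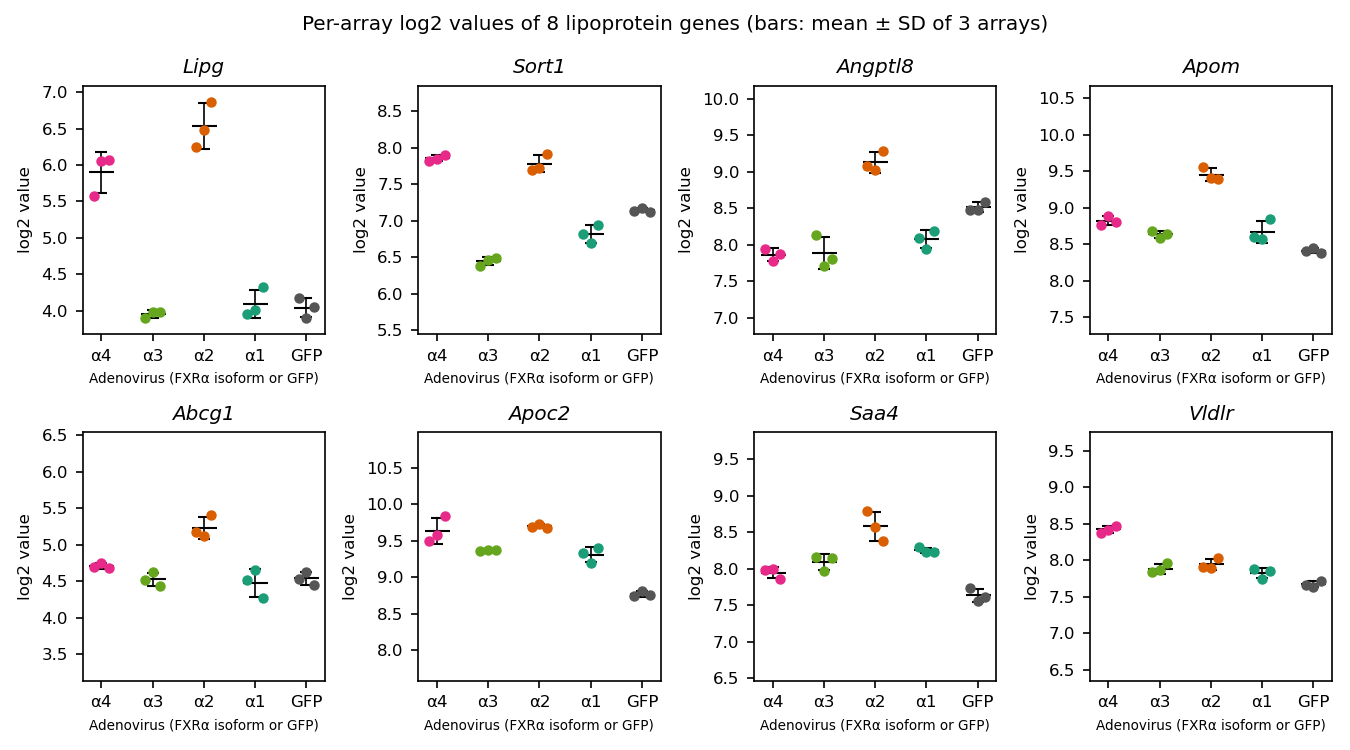
Deposited log2 values of 8 lipoprotein genes in each array (points) for FXRα4, FXRα3, FXRα2, FXRα1 and GFP, with the mean ± SD of 3 arrays; each panel spans the same number of log2 units. Lipg and Sort1 separate the isoforms without the insert from those with it, Angptl8, Apom and Abcg1 are highest with FXRα2, and Vldlr is highest with FXRα4.

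The receptors divided by isoform. Scarb1, the HDL receptor SR-BI, read 9.63, 9.57 and 9.61 with FXRα4, 9.86, 9.88 and 9.88 with FXRα3, 10.33, 10.18 and 10.37 with FXRα2 and 10.09, 9.98 and 10.38 with FXRα1, against 9.84, 9.95 and 9.94 with GFP. The FXRα4 arrays lay below all GFP arrays and those of FXRα2 and FXRα1 above them. Scarb1 fell by 0.31 ± 0.072 with FXRα4 (adjusted p = 0.00171) and rose by 0.38 ± 0.072 with FXRα2 (0.000177). Its FXRα1 change of 0.24 (adjusted p = 0.0291) was lost without any 1 of 4 arrays, with adjusted p of 0.237 without FXRα1 replicate 3. Vldlr, which takes up triglyceride-rich particles, read 8.37, 8.42 and 8.47 with FXRα4, 7.83, 7.86 and 7.96 with FXRα3, 7.90, 7.89 and 8.03 with FXRα2 and 7.88, 7.75 and 7.85 with FXRα1, against 7.66, 7.64 and 7.71 with GFP. FXRα4 stood above all other arrays, with a rise of 0.75 ± 0.066 (1.68-fold, adjusted p = 5.06e-09), beside 0.27 ± 0.066 with FXRα2 (0.00202, call lost with median centring), 0.21 ± 0.066 with FXRα3 (0.03, and 0.158 without FXRα3 replicate 3) and 0.15 ± 0.066 with FXRα1 (0.152). Lrp1, a remnant receptor, rose by 0.46 ± 0.078 with FXRα2 (adjusted p = 4.61e-05) and 0.51 ± 0.078 with FXRα1 (5.07e-05). The change with FXRα4 was 0.22 (adjusted p = 0.0304, and 0.142 without FXRα4 replicate 1) and with FXRα3 0.16 (0.234). Lrpap1, the chaperone of the LRP family, passed no test on the deposited scale, and was called lower with FXRα4 (-0.17) under median centring.

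Of the exporters, Abcg1, which moves cholesterol onto HDL, read 4.70, 4.75 and 4.68 with FXRα4, 4.52, 4.62 and 4.44 with FXRα3, 5.18, 5.12 and 5.40 with FXRα2 and 4.51, 4.65 and 4.27 with FXRα1, against 4.53, 4.63 and 4.45 with GFP. The FXRα2 arrays were the highest and did not overlap the others, with a rise of 0.70 ± 0.11 (adjusted p = 3.15e-05). Abcg5 and Abcg8, neighbouring genes for the pair that exports sterol into bile, fell together with FXRα4 and FXRα3. Abcg8 changed by -0.50 ± 0.13 with FXRα4 (adjusted p = 0.00506), -0.43 with FXRα3 (0.0321, and 0.186 without FXRα3 replicate 3), 0.029 with FXRα2 (0.895) and -0.37 with FXRα1 (0.0807). Abcg5 changed by -0.37 with FXRα4 (0.0321, and 0.203 without GFP replicate 1), -0.51 with FXRα3 (0.00781, and 0.0714 without GFP replicate 1), -0.28 with FXRα2 (0.101) and -0.31 with FXRα1 (0.142). Abca1, which loads lipid onto apolipoprotein A-I, changed by 0.21 with FXRα1 (adjusted p = 0.0285, and 0.163 without FXRα1 replicate 1).

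The insert was examined within each N-terminus. With the short one, FXRα2 against FXRα1, 19 of 38 genes were higher with FXRα2 (50%) and 4 lower (10.5%), against 14.1% and 17.1% of all genes, with medians of 0.118 and -0.041. With the long one, FXRα4 against FXRα3, 10 were higher with FXRα4 (26.3%) and 5 lower (13.2%), against 15.8% and 13.8% of all genes, with medians of 0.023 and -0.017. With median centring these splits were 9 higher and 8 lower (FXRα2 against FXRα1) and 4 higher and 14 lower (FXRα4 against FXRα3). The share of called genes that were higher, over all genes, was then 22.8% and 18.4%, against 45.2% and 53.5% on the deposited scale. Quantile normalization gave splits of 19 higher and 4 lower, and 10 and 5. With 75th percentile centring they were 20 and 3, and 9 and 5. The calls kept whichever array was left out were 15 of 23 and 11 of 15.

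These comparisons share no arrays. A total of 10 genes passed the test in both, all with the same sign. That is 43.5% of those called with the short N-terminus and 66.7% of those called with the long one. Over all genes, 5882 and 5561 were called in these pairs, and their overlap was not counted. The overlap, and the numbers called in 1 pair alone, are therefore not shown to be particular to lipoprotein genes. Apoa1, Apoa2, Apoc2, Apom, Lcat, Lipg and Sort1 were higher without the insert, and Lipa, Lmf1 and Angptl4 were lower. Lipg differed by 2.43 ± 0.15 between FXRα2 and FXRα1 (5.4-fold, adjusted p = 3.27e-11) and by 1.94 ± 0.15 between FXRα4 and FXRα3 (3.84-fold, adjusted p = 1.44e-09). Sort1 differed by 0.96 ± 0.08 (adjusted p = 3.51e-09) and 1.41 ± 0.08 (2.67-fold, adjusted p = 1.19e-11) in the same pairs. Angptl4 differed by -0.52 ± 0.068 and -0.62 ± 0.068 (adjusted p = 2.25e-06 and 2.37e-07). In the FXRα4 pair, the call of Apoa1 (0.10, adjusted p = 0.0426) gave 0.314 without FXRα4 replicate 3 and turned to -0.07 under median centring, and that of Apom (0.19, 0.0419) gave 0.155 without FXRα4 replicate 2. Under median centring Apoa2 lost its call in both pairs (0.17 with FXRα2 and 0.084 with FXRα4), Apoa1 lost it in the FXRα2 pair (0.094), and Apoc2 (0.095) and Apom (0.014) lost it in the FXRα4 pair. In the FXRα2 pair, Lmf1 (-0.15, adjusted p = 0.0134) gave 0.0736 without FXRα1 replicate 1. Over the 38 genes the changes of the pairs correlated at r = 0.79 (Pearson), and at 0.50 over 36 without Lipg and Sort1, as a description of genes measured on the same arrays.

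The genes called in FXRα2 against FXRα1 alone numbered 13, and included Angptl8 (1.05 ± 0.094, 2.08-fold, adjusted p = 9.56e-09), Abcg1 (0.75 ± 0.11, adjusted p = 1.45e-05) and Apon (0.68 ± 0.10, adjusted p = 8.1e-06). In FXRα4 against FXRα3 the values of these genes were -0.018, 0.18 and 0.15 (adjusted p = 0.925, 0.257 and 0.295). The 5 called in FXRα4 against FXRα3 alone were Vldlr (0.54 ± 0.066, adjusted p = 1.1e-06), Apobec1 (-0.41 ± 0.056, 4.7e-06), Scarb1 (-0.27 ± 0.072, 0.00581), Apoc4 (0.27 ± 0.093, 0.0292) and Mttp (0.18 ± 0.052, 0.0126). The last pair lost their calls without FXRα3 replicate 3 (Apoc4, adjusted p = 0.205) and FXRα3 replicate 1 (Mttp, 0.0558). Of the FXRα2 against FXRα1 calls, those of Apoa4, Apoa5, Apob, Apoc1, Apof, Apoh and Abcg8 were also lost without 1 array or another, with adjusted p up to 0.206 (Apoh without FXRα1 replicate 1).

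**Figure D4:**
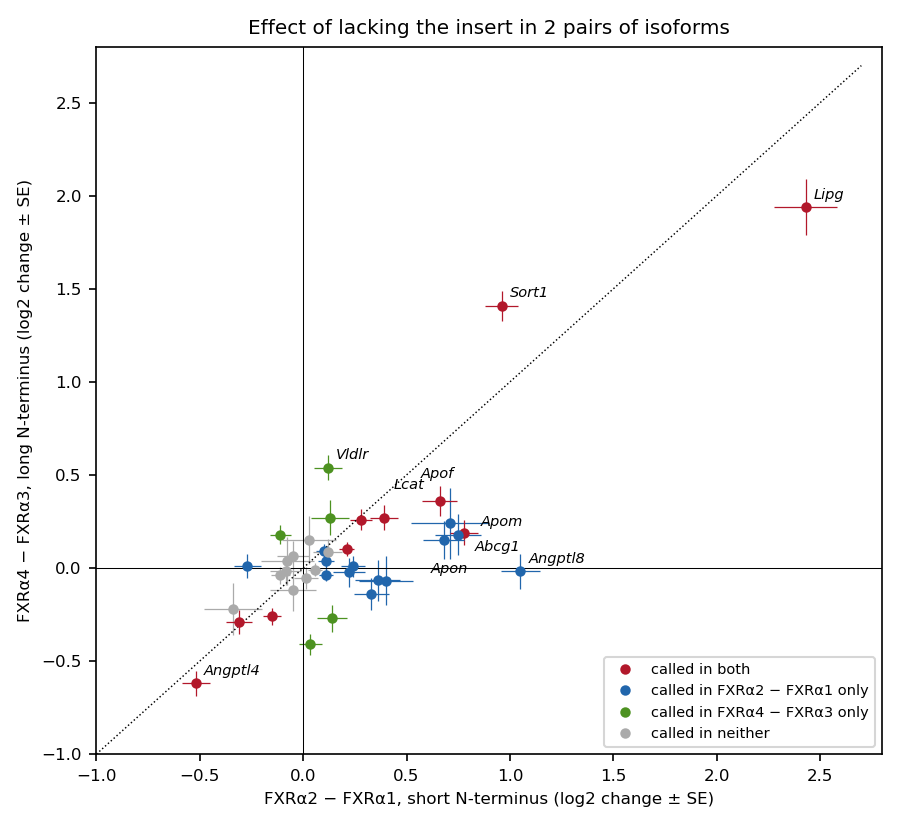
Difference between the isoforms without and with the insert (log2 change ± SE) for the 38 lipoprotein genes, with the short N-terminus (FXRα2 - FXRα1, horizontal) and the long one (FXRα4 - FXRα3, vertical); colours show in which pair the adjusted p was under 0.05 and the dotted line marks equal values. Lipg (2.43, 1.94) and Sort1 (0.96, 1.41) lie far to the upper right, Angptl4 (-0.52, -0.62) to the lower left, and Angptl8 (1.05, -0.018) on the horizontal axis.

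Averaged over both N-termini, 15 genes were higher without the insert than with it (39.5%) and 6 lower (15.8%), against 18.3% and 19.9% of all genes, with medians of 0.095 and -0.031. With median centring, which shifted all genes by -0.145, 11 were higher and 14 lower. The share of called genes that were higher, over all genes, was then 16.6%, against 48% on the deposited scale. With quantile normalization 16 lipoprotein genes were higher and 6 lower, and with 75th percentile centring 15 and 6. The smallest adjusted p belonged to Sort1 (1.19 ± 0.057, adjusted p = 2.07e-13) and Lipg (2.19 ± 0.11, 2.97e-13), followed by Angptl4 (-0.57 ± 0.048, 1.92e-09). The calls of Apoc3, Apoc4, Lpl and Abca1 were lost without 1 array or another, with adjusted p up to 0.0969 (Lpl without FXRα1 replicate 3).

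The long N-terminus was compared with the short one as an average over the isoforms with and without the insert. With the long one, 6 genes were higher (15.8%) and 14 lower (36.8%), against 8.32% and 11.8% of all genes. The medians were -0.049 and 0.006. Over all genes, 41.4% of calls were higher on the deposited scale, and 56.6%, 59.2% and 52.4% with median centring, 75th percentile centring and quantile normalization. The lipoprotein genes split into 7 higher and 12 lower, 7 and 12, and 6 and 14 with these scalings in the same order. Among the lower ones, Angptl8 differed by -0.73 ± 0.066 (adjusted p = 4e-08), Scarb1 by -0.48 ± 0.051 (3.31e-07), Saa4 by -0.40 ± 0.06 (3.52e-05), Apom by -0.33 ± 0.048 (2.04e-05), Lcat by -0.33 ± 0.059 (0.000255) and Apof by -0.60 ± 0.13 (0.00163). Those higher were Vldlr (0.27 ± 0.046, adjusted p = 0.000174), Apoa2 (0.16), Apoc1 (0.12), Apoa1 (0.12), Pon2 (0.15) and Pon1 (0.16). For some genes the average describes neither pair, and the pairs were not tested singly. Mean Apom was 8.64 with FXRα3 against 8.67 with FXRα1, and 8.82 with FXRα4 against 9.46 with FXRα2. In the same pairs Angptl8 was 7.89 against 8.08 and 7.87 against 9.13, and Vldlr 7.88 against 7.82 and 8.42 against 7.94. The calls of Abcg1, Abcg8 and Pon1 were lost without 1 array or another, with adjusted p up to 0.104 (Abcg1 without FXRα2 replicate 3).

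Whether the difference between isoforms without and with the insert depended on the N-terminus was tested as an interaction. This interaction is the difference FXRα4 minus FXRα3 less the difference FXRα2 minus FXRα1. It was above 0 for 4 genes (10.5%) and below 0 for 7 (18.4%), against 7.24% and 5.63% of all genes, with medians of -0.082 and 0.023. With median centring 3 were above and 9 below, and 44.3% of all called genes were above 0, against 56.3% on the deposited scale. Angptl8 had the largest interaction, -1.07 ± 0.13 (adjusted p = 9.67e-06), followed by Apom (-0.59 ± 0.10, 0.000211). Sort1 (0.45 ± 0.11, adjusted p = 0.00897) and Vldlr (0.42 ± 0.093, 0.00388) differed more between FXRα4 and FXRα3 than between FXRα2 and FXRα1. For Lipg the interaction was -0.49 ± 0.21 and did not pass the test (adjusted p = 0.152).

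A wider list of 73 genes of lipoprotein assembly, uptake and lipolysis had 60 measured members. Of the 60, 16 rose and 11 fell with FXRα4 (18% and 15.7% of all genes), 6 rose and 9 fell with FXRα3 (7.45% and 6.62%), 23 rose and 6 fell with FXRα2 (17.5% and 16.7%), and 8 rose and 4 fell with FXRα1 (8.42% and 4%). The medians were -0.013, -0.014, 0.075 and 0.015 in that order. With median centring 11 rose and 30 fell, 4 rose and 8 fell, 10 rose and 26 fell, and 6 rose and 7 fell. With quantile normalization the counts were 16 and 15, 6 and 10, 21 and 6, and 6 and 4. With 75th percentile centring they were 16 and 8, 6 and 8, 22 and 6, and 7 and 4. Creb3l3, a liver transcription factor known to activate Apoc2 and other lipolysis genes, rose by 2.06 ± 0.069 with FXRα4, 2.96 ± 0.069 with FXRα2 and 0.64 ± 0.069 with FXRα1 (adjusted p of 6.07e-07 or less), and changed by -0.04 with FXRα3 (adjusted p = 0.848). A1cf, the cofactor of Apobec1, rose by 1.22 ± 0.10 with FXRα4 and 1.42 ± 0.10 with FXRα2 (adjusted p = 2.59e-09 and 1.85e-10). Pnpla2, the adipose triglyceride lipase, rose by 0.92 ± 0.067 with FXRα4 and 1.03 ± 0.067 with FXRα2. Lipe, the hormone-sensitive lipase, rose by 1.38 ± 0.11 with FXRα4 and 0.99 ± 0.11 with FXRα2 (adjusted p = 7.95e-10 and 1.2e-07). Lrp5, a receptor of the LDL receptor family, fell with all isoforms, with changes of -1.59, -0.97, -1.39 and -0.75 with FXRα4, FXRα3, FXRα2 and FXRα1 (SE 0.069 each, adjusted p of 6.26e-08 or less).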

How the data were processed

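The authors deposited 1 normalized value per probe set for each array, on what its range (1.93 to 13.8) shows to be a log2 scale. The submitters' processing notes name Affymetrix Expression Console 1.1 and PLIER and give neither their role nor the order of steps. How background was corrected and arrays were normalized is not given in the sources used here. Of 35556 probe sets, 21218 carried 1 symbol, 1881 several and 12457 none. Entrez identifiers matched for 21185, and 0 symbols differed.

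All 18820 genes were fitted with limma 3.58.1 in R 4.3.3 (5 group means, 15 arrays, moderated variances with a mean trend, two-sided). Benjamini-Hochberg adjustment ran over all genes, separately for each of 9 contrasts. The fit was tested on simulated data. The members and lists were chosen with earlier results of these data known, so counts over them are descriptions. Any listed gene could be named. Wider pathway genes were named among the 4 with the largest called change each way in a comparison.

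Alternatives were: no variance trend, robust variances, 3 other scalings, no dim genes, every probe set, 16 added before log2, the groups of a contrast alone, the replicate number as a block, and each array left out. The labels do not say what arrays of the same number share, so the numbers were not used to pair samples. Promoter sequences came from RefSeq tables (GRCm38.p6), which held 28 of the 38 genes. A gene whose probe sets are all shared with other genes was not analysed.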

Additional observations from a re-analysis of the deposited data

Results flagged for a closer look

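For 11 lipoprotein genes the difference between isoforms without and with the insert was not the same with the long and the short N-terminus. The test was the interaction with limma over all genes. The values are the difference with the long N-terminus minus that with the short one, in log2 units. Those below 0 were Angptl8 (-1.07), Apom (-0.59), Abcg1 (-0.57), Apon (-0.53), Saa4 (-0.47), Apobec1 (-0.45) and Scarb1 (-0.41). Those above 0 were Mttp (0.28), Abca1 (0.28), Vldlr (0.42) and Sort1 (0.45). The shape differed among them. Angptl8, Abcg1, Apon, Saa4 and Abca1 differed between FXRα2 and FXRα1 and had no call between FXRα4 and FXRα3. Apobec1, Vldlr, Scarb1 and Mttp differed between FXRα4 and FXRα3 and had no call between FXRα2 and FXRα1. Sort1 and Apom were higher without the insert in both pairs. The Apom call between FXRα4 and FXRα3 (0.19, adjusted p = 0.0419) was lost without single arrays, as given above. The call of Abca1 was lost without any 1 of 10 arrays (adjusted p up to 0.117, without FXRα1 replicate 1) and with median centring, and that of Abcg1 without any 1 of 2 arrays (0.0619 without FXRα3 replicate 2). No group had enough arrays for a test of single outlying arrays.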

How the results depend on the processing

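Of 342 pairs of a lipoprotein gene and a comparison, 170 were called, 105 kept sign and call under every alternative, and 159 kept their sign. Leaving out each array in turn, 125 kept both. The number of genes called in FXRα1 against GFP ranged from 7 to 15 with 1 array left out, lowest without FXRα1 replicate 3. Median centring raised the number of all genes called to 11787 in FXRα4 against GFP, 13162 in FXRα2 against GFP, 9200 in FXRα4 against FXRα3 and 12326 for the insert, against 6352, 6448, 5561 and 7182 on the deposited scale. It also turned small log2 changes. With FXRα4 against GFP these were Apoa4 (-0.18), Apob (-0.025) and Lrpap1 (-0.17), and with FXRα2 against GFP Apoa4 (-0.083), Apob (-0.015), Apoc1 (-0.11), Apoe (-0.18) and Mttp (-0.047). In FXRα4 against FXRα3 they were Apoa1 (-0.07) and Abca1 (-0.16), and in FXRα2 against FXRα1 Apoa4 (-0.0097), Apob (-0.01) and Apoc1 (-0.014). For the insert they were Apoc1 (-0.049), Apoc3 (-0.019), Apoe (-0.12), Mttp (-0.11) and Lrp1 (-0.14). Centring shifts all genes down in these comparisons. The replicate number as a block (replicate block) gave 24 higher and 6 lower with FXRα2, 17 and 9 with FXRα4, 11 and 5 with FXRα3 and 13 and 5 with FXRα1, and, for the interaction, 4 above 0 and 12 below. It ended 0 of the 170 calls and added 21. Deviations from the group means correlated over 0.1 in 18 of 30 pairs of arrays with the same number (median 0.158, against -0.077 for different numbers), and 11 of 15 arrays correlated best, on average, with those of their own number, which is a hint of pairing from the data that the labels do not state. Lpl, Gpihbp1, Apod, Apon, Abcg1, Abcg5 and Abcg8, and Lipg with GFP, FXRα3 and FXRα1, read near or below the array medians, where small changes are hard to measure.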
